A study of Mus musculus with 2 samples.

Results

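The colon of adult C57BL/6J mice aged 8 weeks was profiled by sequencing polyadenylated RNA in 2 libraries, numbered by the labels as biological replicates 1 and 2 of 1 group. The labels describe untreated colon taken from littermates, with males and females pooled, and give 1 donor record for both biosamples. The sex-linked reads given below nevertheless differ by library, so technical spread and differences between animals cannot be told apart. The splicing regulators examined are the protein-coding genes whose GENCODE symbol starts with Srsf and a number, Tra2a or Tra2b, Hnrnp and a letter, Ptbp1 to Ptbp3, Esrp1 or Esrp2, Mbnl1 to Mbnl3, Celf1 to Celf6, or Rbfox1 to Rbfox3. This rule found 50 genes among 21474 protein-coding genes and 69691 features in the gene tables. The 50 are 11 SR protein genes, 2 Tra2 genes, 20 hnRNP genes, 3 Ptbp, 2 Esrp, 3 Mbnl, 6 Celf and 3 Rbfox genes. Another 3 symbols that fit the pattern belong to pseudogenes and were left out.

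Splicing regulators are RNA-binding proteins that decide which exons a transcript keeps. SR and Tra2 proteins mostly bind exons and promote their use, hnRNP and Ptbp proteins often block splice sites, and Esrp, Mbnl, Celf and Rbfox proteins set programmes typical of epithelium, muscle or neurons. Many of these genes limit their own output through splicing: the protein favours a form of its own RNA in which an inserted exon, a skipped exon or a retained intron brings an early stop codon. When a stop codon lies well before the last exon junction, nonsense-mediated decay (NMD) destroys the RNA. GENCODE labels such transcripts as decay targets, and it labels transcripts that keep intron sequence as retained-intron transcripts. The level of a decay target in a library is therefore what is present despite its decay.

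The libraries held 46689262 and 45966841 expected counts, that is, reads divided among features by the quantifier. Markers of colon tissue were present: all 7 epithelial, all 7 smooth muscle and all 5 enteric glia markers were at or above 1 TPM in both libraries (TPM is a level corrected for transcript length and scaled to the library). Replicate 2 stood apart in 2 marker lists, with 9 of 9 pancreatic acinar markers and 5 of 5 red blood cell markers called higher there. Of 4 skeletal muscle markers tested, Acta1 was called higher in replicate 1 (31.98 and 7.99 TPM) and Myh2 higher in replicate 2 (0.08 and 0.22 TPM). The acinar markers summed to 31.0 TPM in replicate 1 and 34185 TPM in replicate 2, and the red blood cell markers to 525 and 2998 TPM. The labels give both libraries as pooled sexes, yet 4 Y-linked genes had 0 reads in replicate 1 and 1382 in replicate 2. Xist, expressed from the inactive X chromosome, had 8721 and 12 reads. By these reads replicate 1 resembles female and replicate 2 male tissue, so each comparison of the libraries may also compare sexes. The part of these differences in the values below was not tested, so every level is given for replicate 1 and then replicate 2. In bulk tissue, fewer cells of a type and less RNA per cell cannot be told apart.

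Of the 50 genes, 48 reached 1 TPM in both libraries, 41 had a mean of at least 5 TPM and 9 a mean of at least 100 TPM. Together they made up 3699 and 3421 TPM. The median over members with a mean of at least 1 TPM was 26.1 TPM, against 14.0 TPM over 12756 protein-coding genes with such a mean. In the order of mean TPM, 31 members had a range over the 2 libraries that overlapped that of the next lower member, so most neighbours in the order were not separated.

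**Figure D1:**
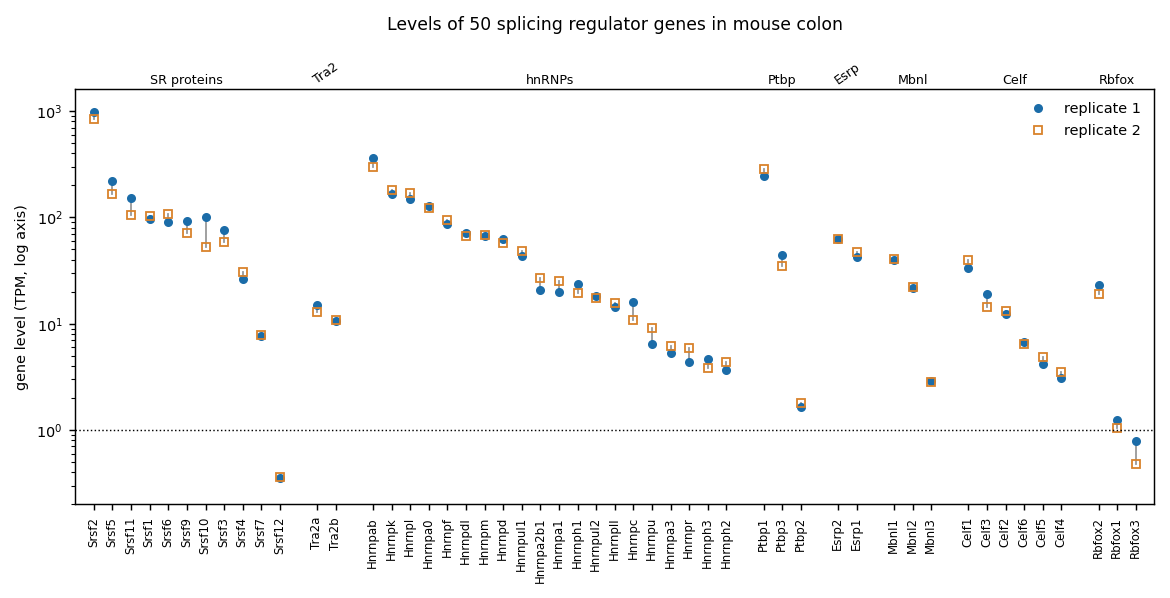
Gene level (TPM, log axis) of each of the 50 splicing regulators by family, with replicate 1 as a filled circle, replicate 2 as an open square and a line joining them; the dotted line marks 1 TPM. Srsf2 is the highest member, and Srsf12 and Rbfox3 lie below the line in both libraries.

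Among the SR proteins, which summed to 1835 and 1545 TPM, Srsf2 stood highest of all members at 974 and 842 TPM. Srsf2 encodes SC35, which acts in the first steps of splice-site choice. Next came Srsf5 at 219 and 165 TPM and Srsf11, an SR-like protein that sits with the early spliceosome, at 152 and 106 TPM. Srsf1, the founding SR protein (also called SF2/ASF), was at 95.8 and 104 TPM and Srsf6 at 89.96 and 108 TPM. Values for Srsf9 were 92.5 and 70.95 TPM, for Srsf10 100.4 and 52.2 TPM, and for Srsf3 76.5 and 58.9 TPM. Srsf10 had the widest spread of these, and its range overlapped those of Srsf1, Srsf6, Srsf9 and Srsf3. Srsf4 at 26.6 and 30.4 TPM and Srsf7 at 7.63 and 7.76 TPM were lower. Srsf12 was at 0.35 and 0.36 TPM, with 16 and 19 reads, below 1 TPM in both libraries. The Tra2 genes, whose products bind GAA-rich exons, lay together at 15.04 and 12.95 TPM (Tra2a) and 10.6 and 10.8 TPM (Tra2b).

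The hnRNPs summed to 1277 and 1255 TPM, nearly alike in both libraries. Hnrnpab led them at 364 and 300.1 TPM. Hnrnpk, which binds C-rich RNA, was at 166 and 182 TPM, Hnrnpl, which binds CA repeats, at 149 and 170.4 TPM, and Hnrnpa0 at 129 and 122 TPM. A middle set held Hnrnpf (86.2 and 94.9 TPM), Hnrnpdl (72.2 and 66.8 TPM), Hnrnpm (67.3 and 68.5 TPM), Hnrnpd (62.5 and 57.7 TPM) and Hnrnpul1 (43.5 and 48.4 TPM). Hnrnpd encodes AUF1, which binds AU-rich elements and is known for its part in mRNA turnover. The genes of the classical core proteins were lower: Hnrnpa2b1 was at 20.7 and 26.9 TPM, Hnrnpa1 at 19.99 and 25.2 TPM, and Hnrnpc at 15.8 and 10.8 TPM. Hnrnph1 (23.6 and 19.6 TPM), Hnrnpul2 (18.2 and 17.4 TPM) and Hnrnpll (14.3 and 15.7 TPM) fell in the same range. The lowest above a mean of 5 TPM were Hnrnpu (6.49 and 9.03 TPM), Hnrnpa3 (5.26 and 6.17 TPM) and Hnrnpr (4.34 and 5.97 TPM). Hnrnph2 and Hnrnph3 had means of 4.01 and 4.24 TPM.

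Several of these genes have near-identical copies elsewhere in the genome, among which an estimated count may divide reads wrongly. Copies were sought by aligning each member's highest coding transcript to all other annotated genes (at least 90% identity over at least 300 nt). Tra2b had 3 pseudogene copies that held 568 and 809 expected counts, against 968 and 1094 for Tra2b itself, so its level is uncertain. The copies of Hnrnpc held 11.0% and 16.9% as many counts as the gene, and the copy of Hnrnpk 7.52% and 9.84%. Hnrnpa3 had 27 copies and Hnrnpa1 13, which held at most 2.34% as many counts as either gene.

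Ptbp1, the polypyrimidine tract-binding protein of non-neuronal cells, was the third highest member at 244 and 283 TPM. Its relative Ptbp3 was at 44.1 and 34.9 TPM, and Ptbp2, the form typical of neurons, at 1.63 and 1.80 TPM. The epithelial regulators Esrp2 and Esrp1 were close to each other, at 62.2 and 62.1 TPM for Esrp2 and 42.0 and 47.4 TPM for Esrp1, and their ranges did not overlap. Of the muscleblind genes, Mbnl1 was at 39.8 and 40.4 TPM, Mbnl2 at 21.7 and 22.1 TPM and Mbnl3 at 2.86 and 2.80 TPM. Celf1, a broadly expressed regulator of splicing and mRNA decay, was at 33.5 and 39.8 TPM and Celf2 at 12.4 and 13.3 TPM. Of the Celf genes best known from the nervous system, Celf3 was highest at 18.9 and 14.4 TPM, above Celf2 without overlap, Celf6 was at 6.66 and 6.48 TPM, and Celf5 and Celf4 had means of 4.54 and 3.30 TPM. Rbfox2 was at 23.0 and 18.9 TPM, while Rbfox1 was at 1.25 and 1.04 TPM and Rbfox3, which encodes the neuronal nuclear antigen NeuN, at 0.78 and 0.48 TPM. The 8 enteric neuron markers summed to 89.2 and 85.3 TPM.

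The next question was which forms of RNA these levels consist of. The transcript tables held 376 transcripts of the 50 genes: 208 labelled coding, 32 decay targets, 82 retained-intron and 53 processed transcripts (spliced RNAs with no assigned reading frame), and 1 with no label because it did not match the annotation. Decay targets were annotated for 19 of the 48 members with a mean of at least 1 TPM (39.6%), against 19.2% of protein-coding genes at that level, and retained-intron transcripts for 26 (54.2%, against 40.2%). Members also had more transcripts annotated, with a median of 6.5 against 4. Decay targets made up 6.80% and 6.23% of the members' summed TPM, compared with 1.74% and 1.66% over all protein-coding genes. Retained-intron transcripts made up 10.7% and 13.7%, compared with 7.38% and 7.35%. These sums are weighted by the abundant members and are given without a test.

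Gene by gene, the members were close to other genes that have such transcripts. A decay share of at least 10% of the gene's TPM (mean of both libraries) was found in 7 of 19 members, 36.8%, where 34.1% of all protein-coding genes with an annotated decay target had one. For retained-intron transcripts it was 12 of 26 members, 46.2%, where the figure for all such genes was 43.9%. These shares are near the background. Coding transcripts held under 50% of the TPM in 11 of 48 members, 22.9%, against 13.2% of protein-coding genes, and in 9 of the 11 this held in both libraries. By reads there were 5 such members, Srsf3, Hnrnpdl, Srsf10, Hnrnpll and Srsf6, or 10.4% against 6.44% of protein-coding genes. In contrast, 17 of the 48 members had only coding transcripts annotated, among them Hnrnpab, Hnrnpa0, Hnrnpf, Hnrnpa1 and Rbfox2. A share rests on how the quantifier divided reads among overlapping transcripts, and short transcripts weigh more in TPM than in reads.

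**Figure D2:**
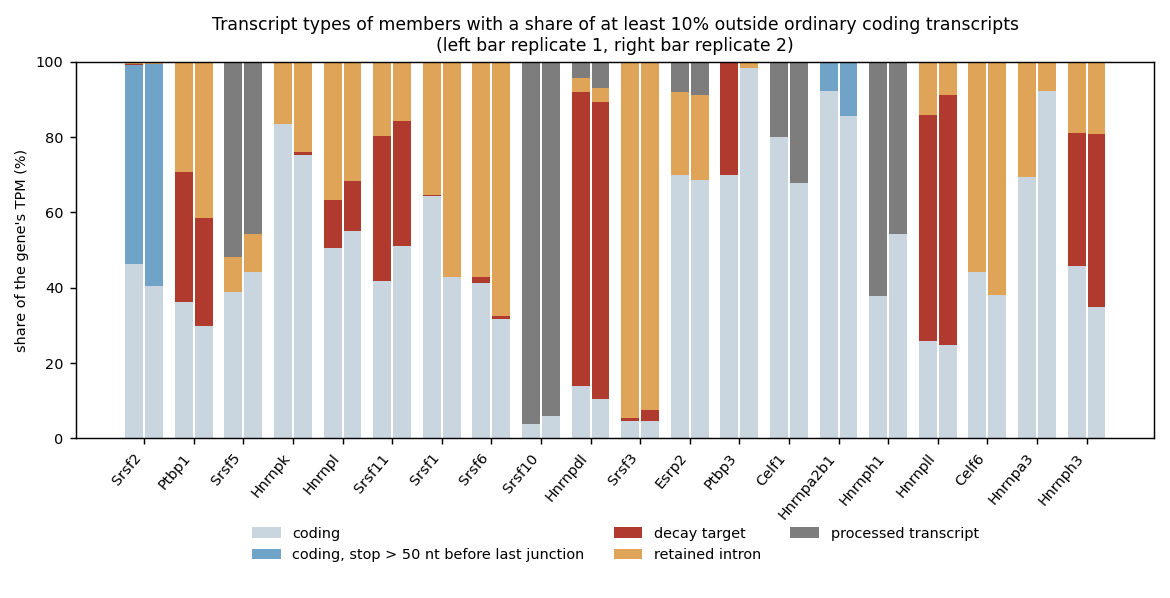
Share of each gene's TPM (percent) in coding transcripts (those with a stop over 50 nt before the last junction apart), decay targets, retained-intron and processed transcripts, for members with a mean of at least 1 TPM and at least 10% in any class other than ordinary coding, ordered by level, with replicate 1 as the left bar and replicate 2 as the right. Hnrnpdl and Hnrnpll are mostly decay target, Srsf3 is mostly retained intron and Srsf10 is mostly processed transcript in both libraries.

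Inserted exons with an early stop, often called poison exons, were the basis of the decay targets of Hnrnpl, Hnrnpll and Srsf11. To show where the reading frame ends, the frame of the highest coding transcript with annotated start and stop codons was carried into the decay target, and each exon is printed below from its first base to the first in-frame stop codon, which is in capitals. The Tra2b, Srsf3, Srsf5 and Srsf6 exons, which lie in transcripts of several labels, are printed with them for comparison. Sequences are those of GENCODE vM21 on mm10, written 5′ to 3′ on the gene's strand.
Hnrnpl exon (chr7:28817335-28817404, plus strand, 70 nt, first 59 nt shown): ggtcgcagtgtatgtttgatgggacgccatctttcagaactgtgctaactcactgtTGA
Hnrnpll exon (chr17:80044940-80045022, minus strand, 83 nt, first 47 nt shown): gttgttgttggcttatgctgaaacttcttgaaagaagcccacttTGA
Srsf11 exon (chr3:158024123-158024231, minus strand, 109 nt, first 23 nt shown): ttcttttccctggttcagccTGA
Tra2b exon (chr16:22258986-22259261, minus strand, 276 nt, first 81 nt shown): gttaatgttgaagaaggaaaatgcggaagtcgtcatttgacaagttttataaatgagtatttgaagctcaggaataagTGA
Srsf3 exon (chr17:29039454-29039909, plus strand, 456 nt, first 34 nt shown): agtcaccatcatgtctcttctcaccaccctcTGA
Srsf5 exon (chr12:80948129-80948504, plus strand, 376 nt, first 51 nt shown): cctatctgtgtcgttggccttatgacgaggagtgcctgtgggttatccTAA
Srsf6 exon (chr2:162932815-162932979, plus strand, 165 nt, first 152 nt shown): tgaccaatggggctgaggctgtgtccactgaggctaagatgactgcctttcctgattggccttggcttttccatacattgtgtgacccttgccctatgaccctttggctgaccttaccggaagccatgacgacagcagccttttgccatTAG
The stop codon was TGA in 5 of these 7 exons, TAA in Srsf5 and TAG in Srsf6. The Hnrnpl, Hnrnpll and Srsf11 exons are not multiples of 3 in length, so they would also shift the frame downstream. Those of Tra2b, Srsf3 and Srsf6 are multiples of 3. The Srsf5 exon is the last exon of Srsf5-206, so no exon and no junction follow its stop codon.

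The Hnrnpl decay target, Hnrnpl-213, was at 19.1 and 22.7 TPM beside 50.93 and 47.7 TPM for the highest coding transcript, Hnrnpl-201. Its stop codon lies 842 nt before the last exon junction. As annotated, Hnrnpl-213 lacks the start codon of Hnrnpl-201, so its frame was inferred from that transcript. Decay targets made up 12.8% and 13.3% of Hnrnpl, a share that hardly moved between libraries. The paralog Hnrnpll, known for its control of Ptprc (CD45) splicing in lymphocytes, had a larger share, 60% and 66.5%. Hnrnpll-203 was at 8.58 and 10.45 TPM, above Hnrnpll-201, 1 of 2 coding transcripts, at 2.61 and 2.53 TPM. The stop of Hnrnpll-203 lies 807 nt before the last junction. Grouped by the exon alone, whatever the label of the transcript, transcripts with the inserted exon made up 23.7% and 21.2% of those that either hold it or splice across it in Hnrnpl, and 64.8% and 70.04% in Hnrnpll. Both libraries thus placed the inserted exon in a minority of Hnrnpl and a majority of Hnrnpll transcripts.

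Srsf11-206 was the second highest decay target of the members, at 54.8 TPM in replicate 1 and 34.2 TPM in replicate 2. Besides the 109-nt exon printed above it holds another inserted exon of 117 nt (chr3:158023243-158023359), and its stop lies 456 nt before the last junction. The quantifier's intervals, whose level the files do not state, ran from 50.02 to 58.6 TPM and from 29.9 to 37.7 TPM and did not overlap. Decay targets held 38.4% and 33.3% of Srsf11 TPM, and transcripts with the 109-nt exon, which include a retained-intron transcript, 53.4% and 44.4% of those with or across it. By reads the decay share was 18.6%. Srsf11-206 is 940 nt long and the coding Srsf11-202, at 17.4 and 14.0 TPM, is 2614 nt, and a short transcript weighs more in TPM. Srsf11-202 is 1 of 4 coding transcripts, which together held 41.8% and 51.0% of Srsf11 TPM, more than the decay targets in both libraries.

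Ptbp1 and Ptbp3 reach the same outcome by leaving an exon out. The skipped exons are printed whole, followed by the start of the exon that then comes next, up to the new stop codon in capitals.
Ptbp1 skipped exon (chr10:79862014-79862047, plus strand, 34 nt): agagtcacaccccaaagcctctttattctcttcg
Ptbp1 following exon to the new stop (chr10:79862449-79862475, plus strand): gcgtctacggtgatgtgcagcgggTGA
Ptbp3 skipped exon (chr4:59517586-59517755, minus strand, 170 nt): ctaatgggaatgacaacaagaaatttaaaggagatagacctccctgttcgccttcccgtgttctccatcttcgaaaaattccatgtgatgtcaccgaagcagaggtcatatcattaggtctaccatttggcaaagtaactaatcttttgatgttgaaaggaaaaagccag
Ptbp3 following exon to the new stop (chr4:59514398-59514420, minus strand): gcctttttagaaatggcttcTGA
Neither 34 nor 170 is a multiple of 3, so skipping shifts the frame, and the new TGA lies 283 nt (Ptbp1-207) and 920 nt (Ptbp3-213) before the last junction.

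Ptbp1-207 was the highest decay target of all members at 80.0 and 77.4 TPM, above the highest coding transcript Ptbp1-206 at 44.3 and 57.6 TPM. Decay targets held 34.5% and 28.7% of Ptbp1 TPM. Counted by the exon, transcripts that skip the 34 nt made up 45.1% and 42.8% of those that either skip or hold it. Ptbp1-207 is annotated with 848 nt against 3169 nt for Ptbp1-206, and by reads the decay share was 14.3%. As annotated, Ptbp1-207 lacks the start codon and the last exon of Ptbp1-206, so its reading frame was inferred from that transcript. Ptbp3-213 was at 13.1 TPM in replicate 1 and listed at 0 in replicate 2, where the interval reached up to 1.62 TPM. In replicate 1 the skipping transcripts made up 32.9% of those that skip or hold the exon. Over the same libraries the coding transcript Ptbp3-205 was at 13.9 and 24.3 TPM, so the 2 transcripts moved in opposite directions. A second coding transcript, Ptbp3-202, followed the decay target, at 3.90 TPM and listed at 0.

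**Figure D3:**
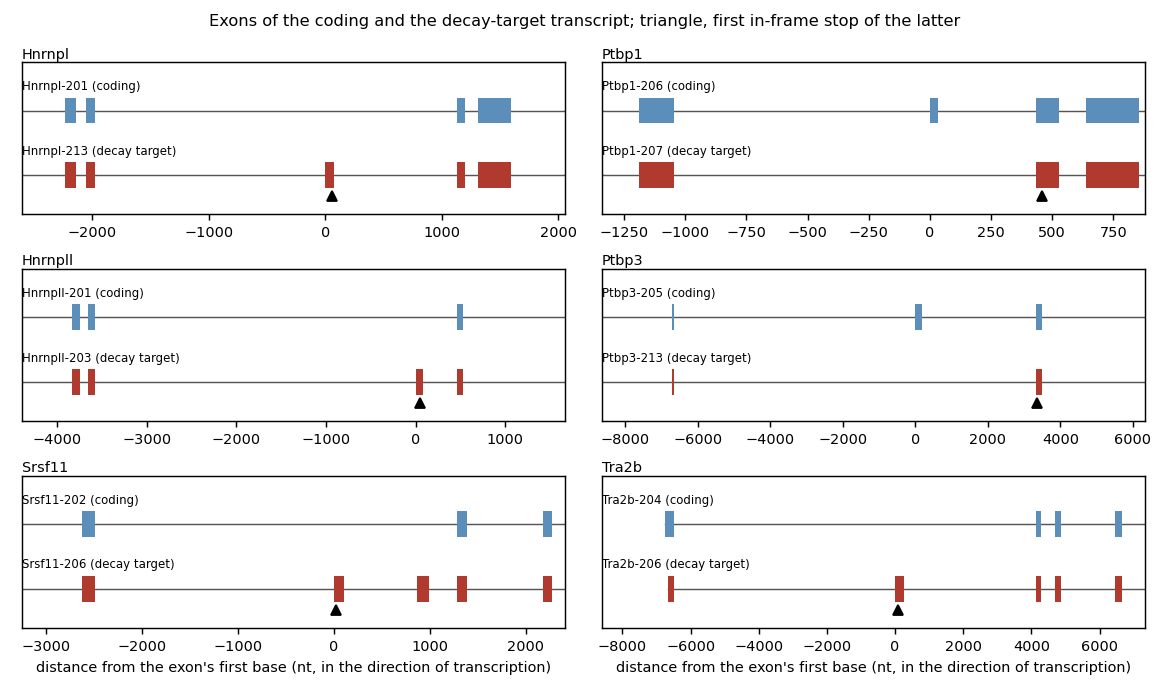
Exons (boxes) of the highest coding transcript with annotated start and stop codons (blue) and of the decay target (red) of 6 members. Only the stretch around the exon that differs is drawn, by distance in nt from that exon's first base in the direction of transcription. Triangles mark the first in-frame stop codon of the decay target. The exon is inserted in Hnrnpl, Hnrnpll, Srsf11 and Tra2b, where the stop lies inside it, and skipped in Ptbp1 and Ptbp3, where the stop lies in the next exon.

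Hnrnpdl had the largest decay share of any member, 77.9% and 78.8%. Here the reading frame of Hnrnpdl-201 is the coding one, ending at the same stop codon, and what differs is an extra exon of 105 nt after it (chr5:100035635-100035739), which places the stop 126 nt before the last junction. Hnrnpdl-201 was at 31.1 and 29.9 TPM and a second decay target, Hnrnpdl-205, at 25.1 and 22.8 TPM. Hnrnpdl-202, 1 of 2 coding transcripts, was at 5.26 and 2.45 TPM. All coding transcripts together held 13.9% and 10.5% of Hnrnpdl TPM. By reads the decay share was about as large, 76.2%. Hnrnph3, a low gene at 4.63 and 3.84 TPM, had decay shares of 35.3% and 45.8%, in Hnrnph3-204, which skips an exon of 139 nt (chr10:63018760-63018898). That transcript rested on 85.3 and 90.9 expected counts.

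Srsf2 shows how much a label can decide. Its 2 annotated decay targets held 0.345% and 0.0166% of its TPM, yet the coding-labelled Srsf2-206 has the same 4 splice junctions as the decay target Srsf2-202 and differs from it only at its ends. Srsf2-206 was at 516 and 496 TPM, or 52.97% and 58.9% of the gene. It carries an exon of 104 nt after the stop codon (chr11:116851648-116851751) that the other main form, Srsf2-201 (450.1 and 341 TPM), lacks. Srsf2-206 also splices out 502 nt (chr11:116850354-116850855) of the last exon of Srsf2-201. That splice makes the last junction of Srsf2-206, and its stop lies 217 nt before this junction. The quantifier's interval for Srsf2-202 ran up to 94.9 TPM in replicate 1 and up to 103 TPM in replicate 2, far above its estimates. Genes that overlap Srsf2 on the other strand, such as Mfsd11 at 30.7 and 25.3 TPM, were far lower, and whether counting used the strand is not given in the sources used here. One more member had coding transcripts with a stop over 50 nt before the last junction, Hnrnpa2b1, at 7.83% and 14.5% of its TPM. Both members with such a transcript passed 10% on average, as did 54.2% of the 155 protein-coding genes with one.

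Tra2b, whose inserted exon is a textbook case of self-limitation, had little of it here. Transcripts that hold the 276-nt exon made up 10.3% and 11.4% of those with or across it. The decay target Tra2b-206 was at 0.16 and 0.67 TPM, and the coding Tra2b-204 at 7.23 and 8.69 TPM. Decay targets of Srsf4 held 4.89% and 7.54% of its TPM, those of Hnrnpd 3.61% and 2.48%, and those of Celf2 4.37% and 6.18%. The other annotated decay targets, of Srsf1, Srsf3, Srsf5, Srsf6, Hnrnpk, Hnrnpr and Celf6, stayed under 3% in both libraries.

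The largest mean retained-intron shares were those of Srsf3, Srsf6, Celf6 and Srsf1, while Srsf11 and the other SR genes had under 20%. Srsf3, the smallest SR protein, had 94.6% and 92.6% of its TPM in this class. Nearly all of it was Srsf3-203, at 67.8 and 51.8 TPM, a transcript of 893 nt whose last exon starts at the first base of the poison exon printed above and so meets the same TGA. The decay target Srsf3-201, which splices that exon to the rest of the gene, was at 0.55 and 1.66 TPM, and the coding Srsf3-202 at 3.57 and 2.72 TPM. Grouped by the exon's first base, 95.04% and 95.2% of Srsf3 transcripts with or across it held it. The stop codon of Srsf3-203 lies in its last exon, 34 nt in, so no junction follows it. Srsf3-203 as annotated lacks the start codon of Srsf3-202, so its frame was inferred from that transcript. The deposited lengths of Srsf3-201 and Srsf3-202 differ from those of vM21, so their outer exons may differ from the ones used here.

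Srsf6-204, which keeps 1283 nt of intron (chr2:162932143-162933425), was at 51.3 and 72.8 TPM, or 57.1% and 67.5% of Srsf6. It was the highest Srsf6 transcript in both libraries, above the coding Srsf6-203 at 23.9 and 25.8 TPM. Its frame meets a TAG in the intron, 1513 nt before the last junction and so beyond the 50 nt used for decay targets. The 165-nt exon printed above lies within this intron. Srsf6-202, labelled coding although it holds that exon with its TAG, was at 13.3 and 8.46 TPM. Srsf1-206 was at 34 and 57.2 TPM, 35.5% and 54.9% of Srsf1. It consists of 2 exons, the second running 152 nt into the intron (chr11:88048675-88048826), and its frame ends at a TAA in the added stretch. Retained-intron transcripts of Srsf1 made up 46.3% of TPM on average but 20.6% of reads.

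Retained-intron transcripts of further members, mostly outside the SR family, held at least 10% of TPM on average. In Ptbp1 they held 28.9% and 41.1% of TPM, led by Ptbp1-214 at 35.9 and 67.2 TPM. Despite its label, the only sequence of Ptbp1-214 within the span but outside the exons of coding Ptbp1-206 is 9 nt (chr10:79860117-79860125). These are the first bases of a 78-nt exon that the decay target Ptbp1-207 holds. Ptbp1-214 made up 14.7% and 23.8% of Ptbp1. In Hnrnpl the retained-intron class held 36.7% and 31.5%, led on average by Hnrnpl-205 at 16.1 and 15.2 TPM. Hnrnpl-206 was at 16.5 and 4.62 TPM and Hnrnpl-212 at 5.10 and 18.7 TPM, so these overlapping transcripts went in opposite directions. Hnrnpk had 16.5% and 24.0%, mostly Hnrnpk-204 at 22.3 and 38.2 TPM, and Srsf11 had 19.8% and 15.7%, led by Srsf11-203 at 20.6 and 9.25 TPM. Esrp2 had 22.1% and 22.5% by TPM but 4.08% by reads. Esrp2-205, its highest transcript of this class at 5.2 and 3.83 TPM, is 721 nt long, against 3536 nt for the coding Esrp2-201. Celf6 had 55.9% and 61.9% by TPM and 13.2% by reads, resting on 32.5 and 36.1 expected counts of Celf6-208. Shares in Hnrnpll (14.2% and 8.84%), Hnrnph3 (19.0% and 19.3%) and Hnrnpa3 (30.5% and 7.79%) came from transcripts each under 2 TPM, among them Hnrnpll-204, Hnrnph3-205 and Hnrnpa3-205. Hnrnpll-204 held 6.80% and 3.75% of Hnrnpll and Hnrnpll-206 5.61% and 3.59%.

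Processed transcripts held nearly all of the TPM of 1 member. Srsf10, an SR-like protein that represses splicing when dephosphorylated, had 96.1% and 94.0% of its TPM in this class. Srsf10-203, 1 of 4 coding transcripts, was at 2.00 and 1.02 TPM, and all 4 together held 3.90% and 5.98% of the TPM. Srsf10-210, at 83.6 and 35.8 TPM, holds the start codon and runs 392 nt into the next intron (chr4:135858410-135858801), where the frame meets a TGA after 69 codons. Nearly all of the difference between 100.4 and 52.2 TPM for the gene lay in this transcript. In Srsf5 the class held 51.9% and 45.7%. Srsf5-206, at 47.5 and 51.5 TPM, ends in the 376-nt exon printed above, while Srsf5-211 was at 66.2 and 23.9 TPM. Hnrnph1 (62.2% and 45.9%, a mean of 54.0%) and Celf1 (19.9% and 32.2%) also had at least 10% in processed transcripts. By reads the shares of this class were lower, 77.4% in Srsf10, 36.6% in Hnrnph1, 24.4% in Srsf5 and 0.969% in Celf1.

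**Figure D4:**
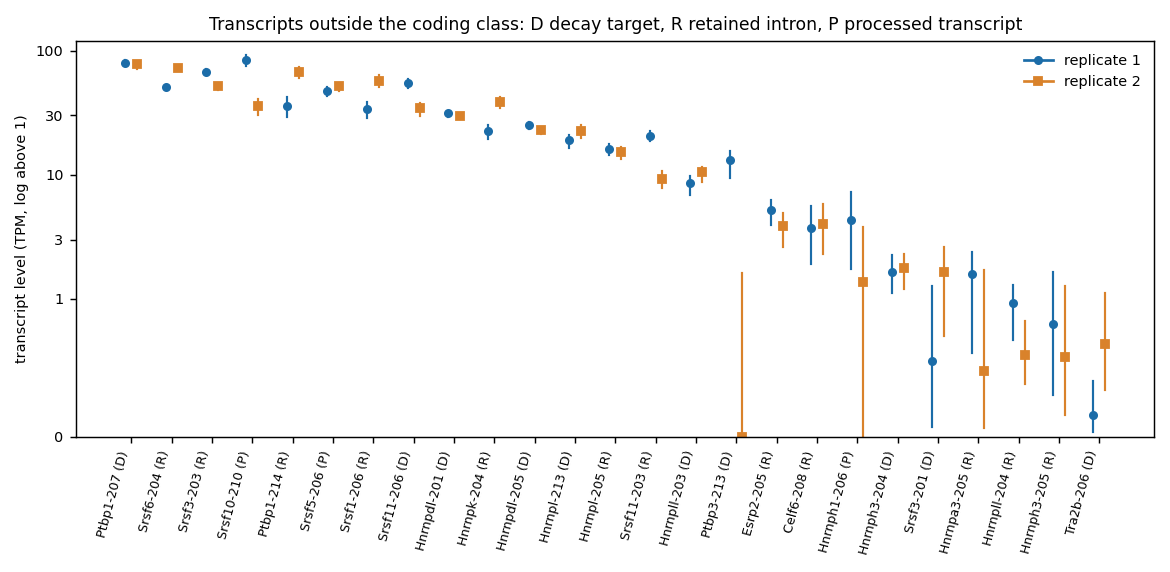
Level (TPM; log axis above 1, linear below) of transcripts outside the coding class that the text describes, with the quantifier's interval as a line, replicate 1 in blue and replicate 2 in orange; D marks decay targets, R retained-intron and P processed transcripts. Intervals of the 2 libraries overlap for Ptbp1-207, Hnrnpl-213 and Hnrnpll-203 and are apart for Srsf11-206, Srsf10-210, Srsf1-206 and Ptbp3-213.

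The 2 libraries were then compared with each other. They also differ in sex-linked reads and in acinar and red blood cell markers. Spread between replicates therefore cannot be told apart from these differences. No member differed by the rule used for calls, which asks for adjusted p ≤ 0.05 together with a ratio of scaled counts of 2-fold or more (two-sided exact binomial test of the rounded expected counts, Benjamini-Hochberg adjustment over all features tested). That was 0 of 50, where 6.35% of the 17713 features tested were called. At an unadjusted p under 0.05 there were 37 members, where 54.3% of all features passed, and after adjustment 34, where 49.4% passed. The ratios of most members thus exceeded counting error while staying below 2-fold. The edgeR exact test at the estimated dispersion called 0 members, and 239 features in all. That dispersion was estimated from these same 2 libraries taken as replicates, so it takes in the differences under test and is not independent support. The exact binomial test compares 2 libraries and covers counting error only.

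The median log2 ratio of the members, replicate 1 over replicate 2, was -0.04, against -0.0047 over all features tested, and 24 members were higher in replicate 1 and 26 in replicate 2. Rbfox3 had the highest log2 ratio, 0.87, on 60 and 32 reads. Srsf10 followed at 0.78 and Hnrnpc at 0.54, while Hnrnpa3 (-0.58) and Hnrnpu (-0.53) were lowest. The median of the 11 SR genes was 0.24, with 7 higher in replicate 1, and that of the 20 hnRNP genes was -0.12, with 13 higher in replicate 2. For Srsf1 the direction depended on the scale: it had more reads in replicate 1 (4145 against 3425) but a higher TPM in replicate 2, where the short Srsf1-206 took more of the gene.

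**Figure D5:**
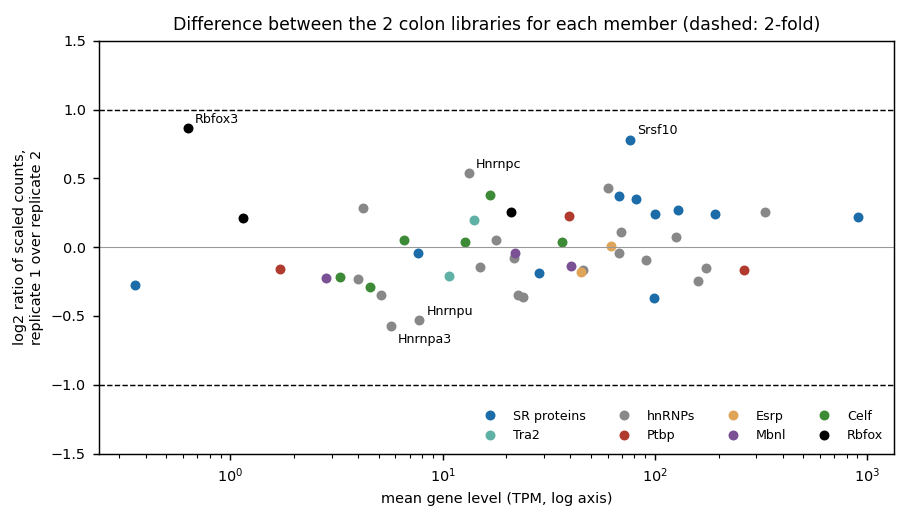
Log2 ratio of scaled counts, replicate 1 over replicate 2, against mean gene level (TPM, log axis) for each member, coloured by family, with dashed lines at a 2-fold difference. All 50 members lie between the dashed lines, from -0.58 for Hnrnpa3 to 0.87 for Rbfox3.

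The division of reads among transcript types was compared in the same way, by Fisher's exact test of the reads in a type against the other reads of the gene, adjusted over all protein-coding genes with that type and called at a difference of at least 10 percentage points. The decay share differed in 2 of 19 members, against 11.2% of the 2544 genes tested. In Ptbp3, decay targets had 515 of 4000 reads in replicate 1, or 12.9% (95% Wilson interval 11.9% to 13.9%). In replicate 2 they had 0 of 3351, with a Wilson interval that reaches up to 0.115%. Hnrnph3 had 36.2% (30.3% to 42.5%) and 48.1% (41.1% to 55.2%), intervals that overlap, with an adjusted p of 0.035 by Fisher's exact test. The retained-intron share differed in 1 of 26 members, Srsf1, against 6.18% of the 5293 genes tested. It had 13.0% of reads in replicate 1 (12.04% to 14.1%) and 28.2% in replicate 2 (26.7% to 29.7%). At an unadjusted p under 0.05, 13 of 19 members had a differing decay share, where 44.0% of all genes tested had one, and 12 of 26 a differing retained-intron share, 46.2%, where the figure for all genes tested was 39.5%. The intervals cover counting error only. These tests do not see the error of dividing reads among overlapping transcripts, which for Ptbp3-213 the quantifier put at a standard deviation of 58.9 reads in replicate 1 and 19.6 in replicate 2.

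Companion genes that act on the members or beside them were compared by the same rule, which called 6.35% of the 17713 features tested. At that share a short list would hold few calls or 0, so the counts of 0 below say little. They mean that no difference passed both limits, not that levels were equal. Of the 12 NMD factors, 0 were called, and they summed to 254 and 268 TPM, led by Smg5 at 62.1 and 59.8 TPM, Smg9 at 44.5 and 46.1 TPM and the helicase Upf1 at 34.7 and 45.8 TPM. The 9 exon junction complex genes, whose products mark splice junctions for NMD, summed to 312 and 316 TPM. Eif4a3 led them at 96.4 and 83.9 TPM, then Acin1 at 84.4 and 84.8 TPM and Rnps1 at 72.6 and 75.6 TPM, and 0 were called. The 9 kinases that phosphorylate SR proteins summed to 154 and 160.23 TPM, with Clk3 (44.2 and 42.3 TPM), Clk2 (38.9 and 38.3 TPM) and Dyrk1a (21.75 and 20.4 TPM) highest and 0 called. Of 42 other RNA-binding splicing regulators, 0 were called and 33 were at or above 1 TPM in both libraries. Srrm2 at 469.7 and 498 TPM, Pcbp1 at 221 and 252 TPM and Ewsr1 at 201 and 211 TPM were the highest. The neuronal regulators Nova1, Nova2, Elavl2, Elavl3, Elavl4, Srrm3, Srrm4 and Khdrbs2 and the muscle regulator Rbm20 were the 9 below 1 TPM in at least 1 library. The 17 core splice-site factors summed to 1178 and 1160 TPM, led by Snrpb (263 and 254 TPM), Puf60 (183 and 166 TPM) and Sf1 (133 and 182 TPM), and 0 were called.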

How the data were processed

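Gene and transcript tables of 2 colon libraries were used as deposited. Per the labels, RNA over 200 nt was polyadenylated and depleted of ribosomal RNA, with spike-ins added, and stranded libraries were read at 76 nt from both ends. Per the file headers, the authors give for each feature an expected count (reads divided among features, not normalized), TPM, FPKM, posterior means and, for transcripts, the percent of the gene's abundance. Per the deposited file notes, these rest on mm10 and GENCODE M4. For the quantifier, its version and its use of strand, the sources used here give nothing. Columns of other samples numbered 0. Junction and contig files on mm9 were not used.

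Symbols, types and exons came from GENCODE vM21 by identifier without version. Of 376 member transcripts, 375 matched and 348 kept their length. Members and gene lists were chosen with earlier results of these data known. Members with a mean of at least 5 TPM, those below 1 TPM, and the highest transcript of each decay or retained-intron share of at least 10% were named, as were the 3 highest genes of each list. Others, among them Srsf2-206, Srsf3-201, Srsf5-206, Srsf6-202, Srsf10-210 and Tra2b-206, the grouping by exon and the share of coding transcripts under 50%, were chosen after values were seen.

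Expected counts were rounded, spike-ins removed, and libraries scaled by TMM in edgeR 4.0.16 (R 4.3.3). Exact binomial tests ran over features with a summed count of at least 10 (above 2000, the doubled exact tail), with 0.5 added to each count in log2 ratios. Fisher's exact tests needed 100 summed counts in a gene. Benjamini-Hochberg adjustment was used. With 1 library an arm no test across replicates exists. Levels of FPKM, as deposited, gave the same order of members as TPM. Within a library FPKM and TPM differ by a constant factor, so this adds little. Copies were found with BLAST 2.17.0. Both tests were tested on simulated data. Alternatives were DESeq2 1.42.0 size factors, total counts, other minimum counts and shares, posterior means, shares of reads and each library alone.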

Additional observations from a re-analysis of the deposited data

How the results depend on the processing

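No paired analysis was possible because there is 1 group. The count of 0 members differing between the libraries was the same under DESeq2 size factors, total counts, minimum summed counts of 1 and 100, posterior mean counts and the edgeR exact test. All of these kept the 2-fold limit, and the largest member log2 ratio was 0.87. Changes of scaling or minimum count could therefore hardly have called a member, and the unchanged count adds little. The count over all features, 1125, was 415 at a minimum of 100 and 239 by the edgeR exact test. The summed decay share of members, 6.52%, was 7.10% with posterior mean TPM and 4.42% by reads, and 6.23% to 6.80% in single libraries. The summed retained-intron share, 12.2%, was 9.53% by reads and 10.7% to 13.7% in single libraries. The 7 members with a decay share of at least 10% became 6 or 7 in single libraries, and 9 when coding transcripts with a stop over 50 nt before the last junction were added. The 12 with a retained-intron share of at least 10% became 11 to 13 in single libraries, 16 at a share of at least 5%, 8 at 20% and 17 with processed transcripts included. The 11 with under 50% of TPM in coding transcripts were 5 by reads and 10 to 11 in single libraries, alternatives chosen after seeing the data. Members with a differing decay share, 2, became 1 with posterior mean counts, 1 at a minimum of 1000 reads, 4 at 5 percentage points and 0 at 20. Those with a differing retained-intron share, 1, became 6 at 5 percentage points and 0 at 20. The median member level, 23.2 TPM, was 23.3 to 26.1 TPM in single libraries, 26.1 TPM over members with at least 1 TPM in both libraries and 40.1 TPM over those with a mean of at least 5. Of 19 shares of at least 10% in single genes, 8 moved by over 1.5 times when counted by reads, and 0 with posterior mean TPM. By reads the shares of Ptbp3 (6.44%, decay), Esrp2 (4.08%), Hnrnph3 (6.46%) and Hnrnpa3 (2.31%, all 3 retained intron) fell under 10%. Depth limits the shares of Celf6, Hnrnpa3 and Hnrnph3, which each rested on under 100 reads in the class. The cause of these shifts, other than transcript length in the shares by reads, was not tested.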
